A study of Homo sapiens with 9 samples.

Results

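YAP1 and WWTR1 (the gene of the protein TAZ), the DNA-binding factors TEAD1 and TEAD4, and 6 described targets or partners of this pathway (CCN1, CCN2, ANKRD1, AMOTL2, LATS2 and AJUBA) were followed in cells labelled HT29, the name of a widely used line from a human colorectal adenocarcinoma. The 10 genes were taken by symbol from a table of 25886 symbols, and all 10 were found there. Of the 16660 genes with enough counts to be tested, 9 were among these 10. ANKRD1 was too low to be tested and is described by its counts. The study asked how the transcriptome differs when DNMT1, which copies DNA methylation onto newly made strands, or DNMT3B, which can methylate unmarked DNA, is depleted. Its design text sets this against the loss of both enzymes under proteasome inhibitors.

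The groups were 3 Control, 3 DNMT1 knockdown and 3 DNMT3B knockdown libraries of rRNA-depleted total RNA. All 9 came from puromycin-selected cells, and the stable knockdowns were made with lentiviruses. The hairpin sequences, the vector carried by the Control cells, and whether a population was 1 clone or a pool are not stated in the labels. Nothing in the labels says that libraries of a group came from separate cultures, so the p-values measure the spread between libraries, which may be technical. In such bulk samples, fewer cells expressing a gene and less RNA per cell cannot be told apart.

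In the Hippo pathway, the kinases STK3 and STK4 activate LATS1 and LATS2, which phosphorylate YAP and TAZ and hold them out of the nucleus. When the kinases are quiet, YAP and TAZ enter the nucleus and bind TEAD factors, which place them on DNA and turn on genes such as CCN1, CCN2 and ANKRD1. LATS2 and AMOTL2 are themselves targets that restrain YAP, a negative feedback, and in the gut epithelium YAP is known for its part in regeneration and in colorectal tumours.

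Libraries held 18.8 to 33.7 M counts (M, 1e6), and levels are given as counts per 1e6 counts (CPM) of the scaled library size. DNMT1 mRNA was at 458 ± 10.3 CPM in Control and 252 ± 4.68 in DNMT1 knockdown, 55.0% of Control in the fit. DNMT3B mRNA was at 61.3 ± 1.17 in Control and 30.5 ± 2.45 in DNMT3B knockdown, 49.9% of Control (SD, n = 3 each). The targeted mRNAs were therefore lowered and not lost. In DNMT3B knockdown, DNMT1 mRNA was at 488 ± 1.95 CPM and was called higher than Control (edgeR adjusted p = 0.0171). That call was lost without Control replicate 1 (0.0804). DNMT3B mRNA, at 64.2 ± 0.324 CPM in DNMT1 knockdown, was not called there. Of 12 colorectal epithelial markers, 7 averaged above 1 CPM in each group, among them EPCAM at 285 ± 0.715 and CDX2 at 38.2 ± 1.13 CPM in Control. KRT20, the lowest of the 7, was at the cut in Control, at 1.03 ± 0.142 CPM with a minimum of 0.931. CDX1 and CEACAM5 were at 0 in all Control libraries, and VIL1, LGALS4 and CDH17 averaged 0.905, 0.295 and 0.317 CPM there, so part of the usual intestinal marker set was absent or close to it. These values go against the labelled line in part, and its identity was not tested here.

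Short stretches before annotated start sites are shown first because several of these genes are described as direct TEAD targets. Sequences are from RefSeq on GRCh38.p14, which gave promoters for 7 of the 10 genes, as 10 windows of the 250 bases before a start site. The letters searched were GGAATG, the core of the TEAD motif, on both strands (read as CATTCC on the other). They were found in 11.9% of 35116 promoter windows of the same length, and at least 2 matches in 0.940%. CCN2 held 3 matches, between 169 and 95 bases before its start, on the minus strand at chr6:131951447-131951556. In each stretch below the match is in capitals, written 5′ to 3′ on the gene's strand.
CCN2: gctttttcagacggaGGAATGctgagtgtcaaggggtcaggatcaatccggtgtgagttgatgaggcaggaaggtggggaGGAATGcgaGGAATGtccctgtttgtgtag
ANKRD1, 220 bases before its start: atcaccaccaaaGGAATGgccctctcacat
ANKRD1, 128 bases before its start: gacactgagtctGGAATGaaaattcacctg
YAP1, 162 bases before its start: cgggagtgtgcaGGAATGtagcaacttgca
AMOTL2, 69 bases before its downstream start: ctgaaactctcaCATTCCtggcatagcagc
AJUBA, 59 bases before its downstream start: gggaagttggctGGAATGaagccaaagcaa

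The ANKRD1 stretches lie at chr10:90921290-90921319 and chr10:90921198-90921227 (minus strand), the YAP1 stretch at chr11:102110273-102110302 (plus strand), the AMOTL2 stretch at chr3:134374499-134374528 and the AJUBA stretch at chr14:22976884-22976913 (both minus strand). In GENCODE v29, the CCN2 stretch and the ANKRD1 stretch farther from the start lie outside annotated exons. The other ANKRD1 stretch, and those of AMOTL2 and AJUBA, lie wholly within an exon of the same gene, which has starts farther upstream in that annotation. The YAP1 stretch lies within an exon of another gene, AP001527.2. The letters were not in the LATS2 window, in either WWTR1 window or in the upstream AMOTL2 and AJUBA windows. TGANTCA, the core to which AP-1 binds, was found once, in ANKRD1, and in 6.57% of all windows. These windows also differ in CpG content, the sites on which DNMT1 and DNMT3B act. YAP1 held 36 CpGs in 250 bases, the downstream AMOTL2 window 29, LATS2 25, the upstream AJUBA window 20 and CCN2 13, against a median of 11 over all windows. Other windows of these genes were poorer: the upstream AMOTL2 window held 0, the downstream AJUBA window 3, and ANKRD1 4. The WWTR1 windows held 1 and 13. No methylation was measured here, and a match is a description of these letters, not a bound site.

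The co-activators were read first. YAP1 (chromosome 11, 102110461 to 102233423) was at 264, 261 and 268 CPM in Control libraries 1 to 3, at 299, 294 and 290 in DNMT1 knockdown, and at 206, 214 and 211 in DNMT3B knockdown. No libraries of different groups overlapped: DNMT1 knockdown was highest and DNMT3B knockdown lowest. YAP1 rose by a log2 fold change of 0.15 ± 0.03 (SE) in DNMT1 knockdown (edgeR quasi-likelihood test, Benjamini-Hochberg adjusted p = 0.000212). It fell by 0.33 ± 0.03 on the log2 scale in DNMT3B knockdown, to 79.6% of Control (edgeR adjusted p = 6.01e-10). Set directly against each other, the knockdowns differed by 0.48 ± 0.03 (log2, DNMT1 over DNMT3B knockdown; edgeR adjusted p = 1.12e-13).

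WWTR1, the gene of TAZ (chromosome 3, 149517235 to 149736714), was at 86.0, 82.5 and 80.8 CPM in Control, 94.6, 93.5 and 97.6 in DNMT1 knockdown, and 100.1, 96.9 and 96.4 in DNMT3B knockdown. Every knockdown library lay above every Control library, and the knockdowns overlapped each other. WWTR1 rose by 0.20 ± 0.04 (log2) in DNMT1 knockdown (edgeR adjusted p = 6.77e-05) and by 0.24 ± 0.04 in DNMT3B knockdown (adjusted p = 3.64e-06). The knockdowns differed by -0.04 with a 95% interval from -0.12 to 0.04. YAP1 and WWTR1 encode closely related proteins, yet in DNMT3B knockdown YAP1 fell while WWTR1 rose. Per kb of exon, the YAP1 level was 4.25 ± 0.176 times the WWTR1 level in Control, 4.13 ± 0.140 times in DNMT1 knockdown and 2.87 ± 0.109 times in DNMT3B knockdown (SD, n = 3). The ratio ran from 2.75 to 2.95 in DNMT3B knockdown and from 3.97 to 4.44 in the other 6 libraries, with no overlap. An exact permutation test of 3 against 3 libraries cannot go below p = 0.1, so the ratios are given as descriptions. An antisense gene shares 9.97% of the YAP1 exon bases and WWTR1-AS1 shares 9.45% of those of WWTR1. No source used here gives the strand used in counting, so reads there cannot be assigned. WWTR1-AS1 itself had at most 38 counts in a library.

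**Figure D1:**
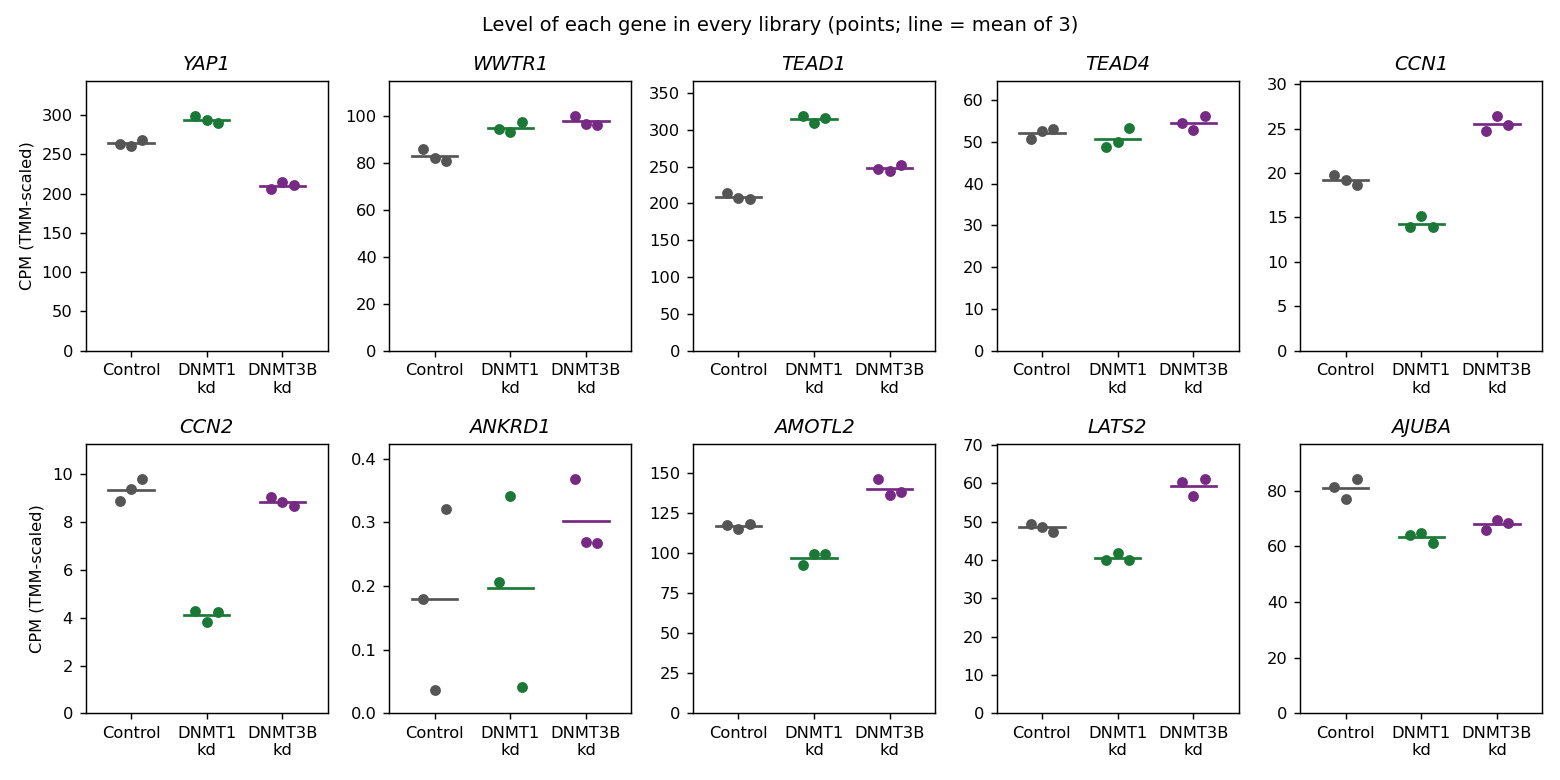
Level of each of the 10 genes in every library, in CPM of the scaled library size on linear axes from 0, with points for libraries and a line at the mean of 3. YAP1 is highest in DNMT1 knockdown (290 to 299) and lowest in DNMT3B knockdown (206 to 214), CCN1, AMOTL2 and LATS2 run the other way, and ANKRD1 stays below 0.4 CPM.

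The TEAD factors supply the DNA contact of YAP and TAZ. TEAD1 (chromosome 11, 12674591 to 12944483) was at 215, 207 and 206 CPM in Control, 318, 309 and 316 in DNMT1 knockdown, and 247, 244 and 253 in DNMT3B knockdown. The groups were fully apart, with DNMT1 knockdown highest and Control lowest. TEAD1 rose by 0.59 ± 0.03 (log2), to 150% of Control, in DNMT1 knockdown (edgeR adjusted p = 6.91e-16). It rose by 0.24 ± 0.03 in DNMT3B knockdown (adjusted p = 2.6e-07), and the difference between knockdowns was 0.35 ± 0.03 (adjusted p = 2.26e-10). Among the 9 tested genes TEAD1 had the largest rise in DNMT1 knockdown.

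TEAD4 (chromosome 12, 2959330 to 3040673) was at 50.6, 52.6 and 53.1 CPM in Control, 48.8, 49.96 and 53.2 in DNMT1 knockdown, and 54.4, 52.8 and 56.1 in DNMT3B knockdown. All 3 groups overlapped. Against Control its log2 fold change was -0.04 in DNMT1 knockdown (95% interval -0.13 to 0.05) and 0.07 in DNMT3B knockdown (-0.02 to 0.15), and neither passed the test (edgeR adjusted p = 0.49 and 0.208). The direct comparison gave -0.11 ± 0.04 at an adjusted p of 0.04996, on the edge of the 0.05 threshold. That call was kept in 7 of 18 settings and lost, among others, without DNMT1 knockdown replicate 1 (adjusted p = 0.202), replicate 2 (0.133) or DNMT3B knockdown replicate 3 (0.206).

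The other family members went opposite ways in the knockdowns. TEAD2 was at 59.0, 66.9 and 64.9 CPM in Control, 79.9, 83.6 and 86.3 in DNMT1 knockdown, and 55.7, 54.4 and 55.3 in DNMT3B knockdown. TEAD3 was at 42.5, 48.6 and 43.9, at 52.6, 54.7 and 59.0, and at 40.2, 34.0 and 38.3 in the same order. For both genes DNMT1 knockdown lay above Control and DNMT3B knockdown below it, with no overlap. TEAD2 rose by 0.39 ± 0.04 (log2) in DNMT1 knockdown and fell by 0.20 ± 0.05 in DNMT3B knockdown (edgeR adjusted p = 7.19e-09 and 0.000376). TEAD3 rose by 0.30 ± 0.05 and fell by 0.25 ± 0.06 (adjusted p = 2.35e-05 and 0.000401). VGLL4, a cofactor that competes with YAP for TEAD, rose from 57.6 ± 1.44 to 66.1 ± 1.55 CPM in DNMT1 knockdown. VGLL1, VGLL2 and VGLL3 were too low to test. Of the 3 tested genes in this list of other TEAD factors and cofactors, 3 rose in DNMT1 knockdown, while 2 fell and 1 did not pass in DNMT3B knockdown, beside 41.8% and 47.7% of all genes called. Between the knockdowns TEAD2 differed by 0.59 ± 0.04 and TEAD3 by 0.56 ± 0.06 (log2, DNMT1 over DNMT3B knockdown; edgeR adjusted p = 1.56e-12 and 1.05e-09).

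Per kb of exon, TEAD1 made up 25.7 ± 1.30% of the summed level of the 4 TEAD genes in Control, 30.9 ± 1.06% in DNMT1 knockdown and 30.6 ± 0.498% in DNMT3B knockdown. TEAD4 made up 28.9 ± 0.518%, 22.5 ± 0.311% and 30.4 ± 0.360% in the same order (SD, n = 3). By this measure the largest share was that of TEAD4 in Control and that of TEAD1 in DNMT1 knockdown. The order rests on merged exon lengths, 10.279 kb for TEAD1 and 2.272 kb for TEAD4. In CPM, TEAD1 was at 209 and TEAD4 at 52.1 in Control. TEAD4 itself did not pass the test in DNMT1 knockdown, so its smaller share there came with the rises of TEAD1, TEAD2 and TEAD3. In DNMT3B knockdown the TEAD1 and TEAD4 shares overlapped and both lay above those of TEAD2 (23.5 ± 0.421%) and TEAD3 (15.6 ± 0.961%).

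**Figure D2:**
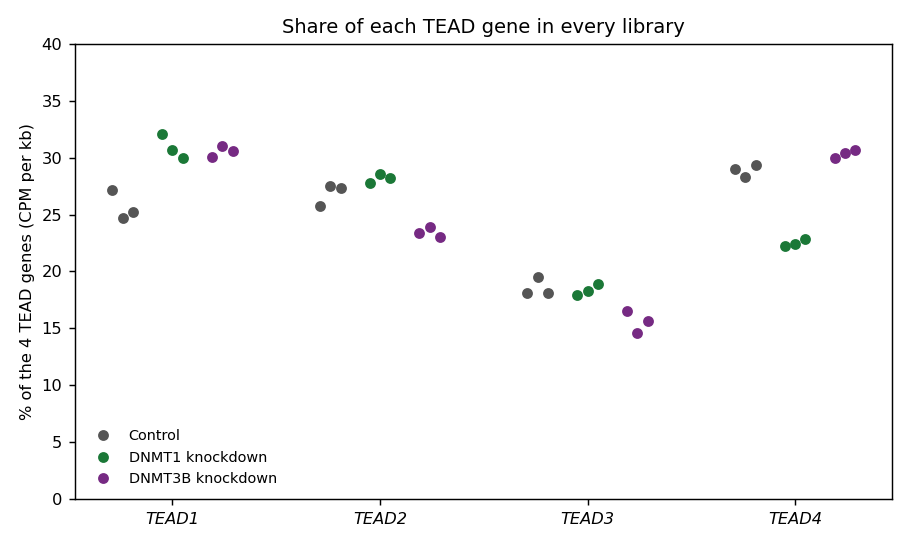
Share of each TEAD gene in the summed CPM per kb of exon of the 4 genes (vertical axis, %), with 1 point per library. TEAD4 holds 28.3 to 29.3% in Control and 22.2 to 22.8% in DNMT1 knockdown, and TEAD1 holds 24.7 to 27.1% in Control and at least 30.01% in every knockdown library.

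Among the targets, CCN1 (formerly CYR61) encodes a secreted matrix protein and is an immediate YAP and TEAD target. It lies on chromosome 1, 85580761 to 85583962. It was at 19.8, 19.2 and 18.7 CPM in Control, 13.9, 15.1 and 13.9 in DNMT1 knockdown, and 24.7, 26.4 and 25.4 in DNMT3B knockdown. The groups did not overlap, with DNMT1 knockdown lowest and DNMT3B knockdown highest. CCN1 fell by 0.43 ± 0.06 (log2) in DNMT1 knockdown, to 74.3% of Control (edgeR adjusted p = 1.23e-06). It rose by 0.40 ± 0.06, to 132% of Control, in DNMT3B knockdown (adjusted p = 4.49e-07). The direct difference between knockdowns was -0.83 ± 0.06 (adjusted p = 9.16e-13).

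CCN2 (formerly CTGF), the family member most used as a YAP readout, encodes a secreted protein of the fibrotic and wound matrix. It lies on chromosome 6, 131948176 to 131951373, and carried the 3 motif matches printed above. Its level was 8.89, 9.35 and 9.79 CPM in Control, 4.29, 3.84 and 4.24 in DNMT1 knockdown, and 9.04, 8.83 and 8.66 in DNMT3B knockdown. DNMT1 knockdown libraries were all well below the rest, and DNMT3B knockdown overlapped Control. CCN2 fell by 1.18 ± 0.09 on the log2 scale, to 44.2% of Control, in DNMT1 knockdown (edgeR adjusted p = 4.96e-12). Among the 9 tested genes this was the largest change. In DNMT3B knockdown the log2 fold change was -0.08, with a 95% interval from -0.24 to 0.08 (adjusted p = 0.438). The direct difference was -1.10 ± 0.10 (adjusted p = 6.52e-11). An antisense gene shares 8.34% of the CCN2 exon bases, with the same limit on strand as above.

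CCN1 and CCN2 are close relatives with a shared response to YAP, and their balance differed between groups. The CCN1 level per kb was 1.97 ± 0.153 times the CCN2 level in Control, 3.32 ± 0.381 times in DNMT1 knockdown and 2.75 ± 0.129 times in DNMT3B knockdown (SD, n = 3). Both knockdowns lay above Control without overlap. In DNMT1 knockdown the fitted fall of CCN2 exceeded that of CCN1, and in DNMT3B knockdown CCN1 rose and CCN2 did not pass the test. The other CCN genes were low. CCN3, which can oppose CCN2 in the matrix, was at 3.73 ± 0.141 CPM in Control, 4.62 ± 0.284 in DNMT1 knockdown and 5.37 ± 0.540 in DNMT3B knockdown, and rose in both (edgeR adjusted p = 0.026 and 0.000258). CCN4 was at 1.13 ± 0.0771, 1.65 ± 0.133 and 1.18 ± 0.186 CPM, and rose in DNMT1 knockdown (adjusted p = 0.0178). With DESeq2 the DNMT1 knockdown calls of CCN3 and CCN4 were lost (adjusted p = 0.1 and 0.0982). In edgeR fits that left out 1 library, CCN3 lost that call when the library was Control replicate 2 (0.0508) or 3 (0.0781) or DNMT1 knockdown replicate 1 (0.108). CCN4 lost it when Control replicate 1 (0.0686) or DNMT1 knockdown replicate 2 (0.074) was left out. CCN5 was at 1.99 ± 0.342, 1.44 ± 0.108 and 1.87 ± 0.605 CPM and passed in neither (adjusted p = 0.0624 and 0.895), and CCN6 was too low to test. CCN5 was called lower in DNMT1 knockdown with no low-count filter (0.0308), in a fit of the compared groups alone (0.0354), when thinned (0.0451) and without DNMT3B knockdown replicate 3 (0.0397).

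ANKRD1, a nuclear ankyrin-repeat protein best known in heart and a common YAP reporter gene (chromosome 10, 90912096 to 90921276), was barely detected. Its counts were 6, 1 and 10 in Control, 5, 8 and 1 in DNMT1 knockdown, and 9, 5 and 7 in DNMT3B knockdown. A count of 0 would allow 3 counts, so 2 of the 9 libraries were below that floor, and no library passed 0.368 CPM. The sums of 17, 14 and 21 counts had exact 95% Poisson intervals of 9.90 to 27.2, 7.65 to 23.5 and 12.999 to 32.1 (counting error only). These sums are not scaled for depth, which differed between groups. Scaled means were 0.179 ± 0.142 CPM in Control, 0.196 ± 0.150 in DNMT1 knockdown and 0.302 ± 0.0575 in DNMT3B knockdown. Overlap of the intervals is not a test, and whether ANKRD1 differed was left undecided at this depth.

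The feedback genes came next. AMOTL2, an angiomotin-like junction protein that binds YAP and holds it in the cytoplasm, lies on chromosome 3, 134355874 to 134375479. It was at 117, 115 and 118 CPM in Control, 92.7, 99.3 and 99.1 in DNMT1 knockdown, and 146, 136 and 138 in DNMT3B knockdown. LATS2, the kinase that phosphorylates YAP and TAZ (chromosome 13, 20973032 to 21061547), was at 49.5, 48.6 and 47.4 CPM in Control, 40.1, 41.8 and 39.97 in DNMT1 knockdown, and 60.3, 56.7 and 61.1 in DNMT3B knockdown. For both genes every DNMT1 knockdown library was below, and every DNMT3B knockdown library above, all Control libraries. AMOTL2 fell by 0.27 ± 0.04 (log2) in DNMT1 knockdown (edgeR adjusted p = 7.59e-07) and rose by 0.27 ± 0.04 in DNMT3B knockdown (adjusted p = 3.81e-07). LATS2 fell by 0.26 ± 0.04 (adjusted p = 1.92e-05) and rose by 0.30 ± 0.04 (adjusted p = 7.27e-07). The direct differences were -0.53 ± 0.04 for AMOTL2 and -0.55 ± 0.04 for LATS2 (adjusted p = 3.49e-13 and 6.56e-12).

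AJUBA, a LIM-domain scaffold that can restrain LATS kinases at junctions (chromosome 14, 22971174 to 22982642), was at 81.3, 77.1 and 84.2 CPM in Control. In DNMT1 knockdown it was at 64.1, 64.6 and 61.3, and in DNMT3B knockdown at 65.8, 69.6 and 68.4. All knockdown libraries lay below Control. AJUBA fell by 0.35 ± 0.04 (log2) in DNMT1 knockdown (edgeR adjusted p = 1.78e-08) and by 0.25 ± 0.04 in DNMT3B knockdown (adjusted p = 4.26e-06). The knockdowns differed by -0.10 ± 0.04, which missed the threshold (adjusted p = 0.056) and passed it in 5 of 18 settings, with a 95% interval from -0.19 to -0.01. AJUBA was thus the 1 member that fell in both knockdowns, as WWTR1 and TEAD1 were the members that rose in both.

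**Figure D3:**
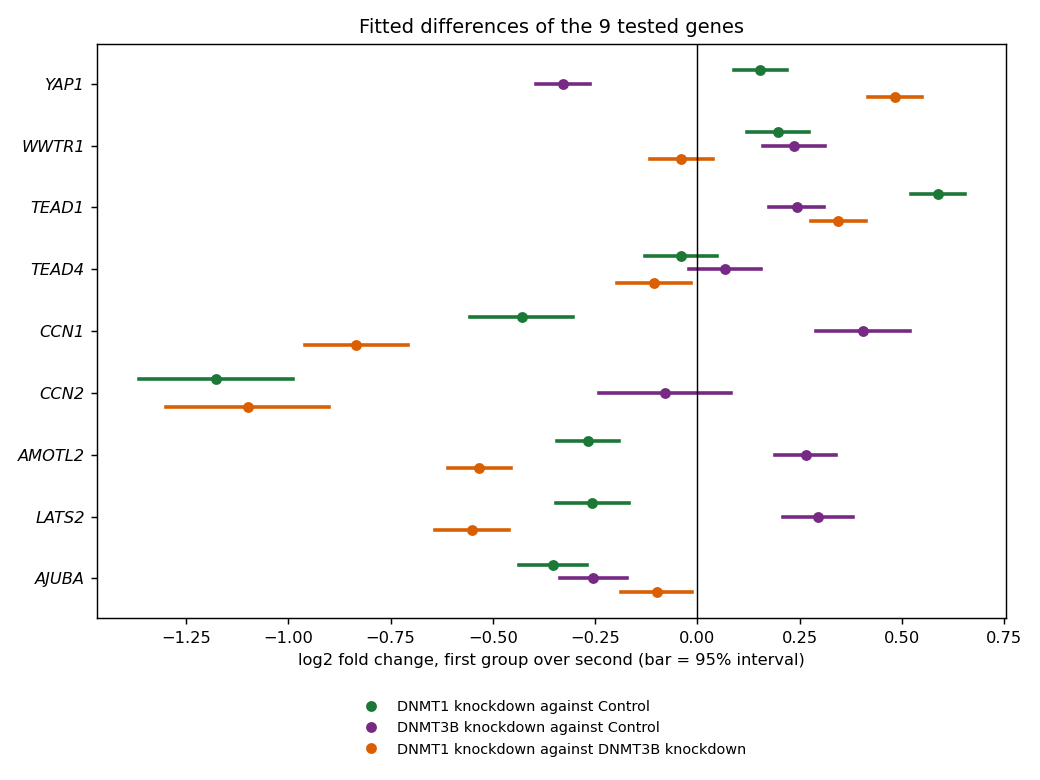
Log2 fold changes (horizontal axis, first group over second) of the 9 tested genes with 95% intervals from the edgeR fit, in 3 comparisons by colour. CCN1, AMOTL2 and LATS2 lie below 0 in DNMT1 knockdown and above 0 in DNMT3B knockdown, and CCN2 reaches -1.18 in DNMT1 knockdown.

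Of the 9 tested genes, 3 rose (YAP1, WWTR1 and TEAD1), 5 fell (CCN1, CCN2, AMOTL2, LATS2 and AJUBA) and 1 did not pass in DNMT1 knockdown. Over all tested genes 41.8% were called in that comparison, 21% higher and 20.8% lower. The genes' median log2 fold change was -0.26, against 0.00 over all genes. In DNMT3B knockdown 5 rose, 2 fell (YAP1 and AJUBA) and 2 did not pass, beside 47.7% of all genes called, 23.1% higher and 24.6% lower. The median was 0.24, again against 0.00. Libraries of the groups did not overlap for 8 and 7 of the 9 genes, and for 49.4% and 54.1% of all genes. The calls and sizes of the 2 knockdown comparisons rest on the same 3 Control libraries, and the direct comparison is the test of a difference between them.

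In the direct comparison 45.2% of all genes were called, 24.3% higher and 20.9% lower in DNMT1 than in DNMT3B knockdown. Of the 9 genes, YAP1 and TEAD1 were higher in DNMT1 knockdown, and CCN1, CCN2, AMOTL2 and LATS2, with TEAD4 at the edge, were lower. Libraries of the knockdowns did not overlap for 7 of the 9, and for 52.2% of all genes. In DNMT1 knockdown the co-activators and TEAD1 were thus above Control and the 4 targets and feedback genes CCN1, CCN2, AMOTL2 and LATS2 below it. In DNMT3B knockdown YAP1 was below Control while WWTR1, TEAD1, CCN1, AMOTL2 and LATS2 were above it, and CCN2 did not pass the test. AJUBA was below Control in both knockdowns. These are mRNA levels, and the phosphorylation and nuclear location of YAP and TAZ, through which the pathway acts, were not measured here.

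The median size of called changes over all genes was 0.24 on the log2 scale in DNMT1 knockdown and 0.27 in DNMT3B knockdown. In DNMT1 knockdown YAP1 and WWTR1 were below that size, at 0.15 and 0.20, and the other 6 called genes were above it. In DNMT3B knockdown YAP1, CCN1 and LATS2 were above it, and WWTR1, TEAD1, AMOTL2 and AJUBA were below it. CCN2, at 1.18 in size, stood at the 98.6th percentile of all tested genes in DNMT1 knockdown.

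Per kb of exon (all annotated exons of a gene merged), YAP1 was the highest of these genes in each group, at 42.0 ± 0.641 CPM per kb in Control. TEAD4 (22.9 ± 0.569), TEAD2 (21.3 ± 1.38) and TEAD1 (20.4 ± 0.447) followed, and neighbours among the 3 overlapped. AMOTL2 (19.5 ± 0.240) lay just below TEAD1. TEAD3 (14.8 ± 1.04) and AJUBA (13.5 ± 0.600) overlapped, then came WWTR1 (9.87 ± 0.317), LATS2 (8.70 ± 0.187), CCN1 (7.83 ± 0.229) and CCN2 (3.99 ± 0.193). ANKRD1, at 0.0905 ± 0.0717, was far below the rest. With DNMT1 knocked down, TEAD1 moved up to 30.6 ± 0.459, next after YAP1, and in DNMT3B knockdown TEAD1, TEAD4 and AMOTL2 overlapped at 24.1 ± 0.430, 23.97 ± 0.723 and 23.4 ± 0.888.

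**Figure D4:**
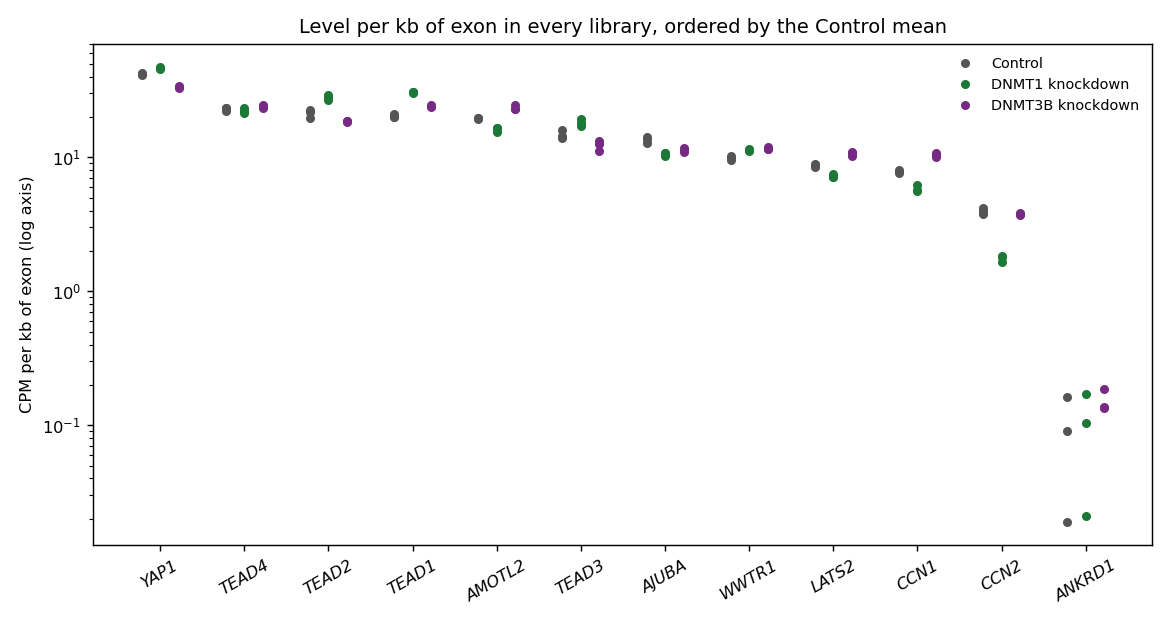
Level per kb of exon of the 10 genes with TEAD2 and TEAD3 in every library (log axis, CPM per kb), ordered by the Control mean. YAP1 is highest in all groups (42.0 in Control), CCN2 is separated from its Control level in DNMT1 knockdown, and ANKRD1 stays below 0.2.

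The wider pathway was read from lists of other genes. Of 28 kinases, scaffolds and upstream regulators of Hippo signalling, 5 rose and 8 fell in DNMT1 knockdown and 7 rose and 10 fell in DNMT3B knockdown, with medians of 0.01 and -0.01. The 13 and 17 called stand beside 41.8% and 47.7% of all genes, and 13 of 28 is near that background. WWC1 (KIBRA), a scaffold that activates LATS, was at 78.1 ± 1.09 CPM in Control and rose, to 118 ± 2.58 with DNMT1 and 102 ± 3.53 with DNMT3B knocked down. Its relative WWC3 went the other way, at 24.9, 25.5 and 23.6 CPM in Control, 16.5, 18.0 and 16.9 in DNMT1 knockdown, and 10.9, 11.3 and 10.99 in DNMT3B knockdown. WWC3 libraries of the 3 groups did not overlap, and it fell by 0.52 ± 0.06 and 1.16 ± 0.06 on the log2 scale. AMOT, the founding angiomotin, rose from 11.6 ± 0.365 to 17.3 ± 0.646 CPM in DNMT1 knockdown. FRMD6, an upstream activator of the kinases, fell from 20.9 ± 0.940 to 13.8 ± 0.392 CPM in DNMT3B knockdown.

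Between the knockdowns, 9 of these 28 regulators were higher in DNMT1 knockdown and 5 lower (median -0.02), beside 45.2% of all genes called. AMOTL1, a relative of AMOTL2, was at 177 ± 3.36 CPM in DNMT1 knockdown and 138 ± 3.18 in DNMT3B knockdown, and was called higher in the former, opposite to AMOTL2. FRMD6 (log2 difference 0.62 ± 0.06) and WWC3 (0.63 ± 0.07) were also higher in DNMT1 knockdown.

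Other described YAP and TEAD targets did not share 1 direction. Of 18 tested of 22, 5 rose and 2 fell in DNMT1 knockdown (median 0.06), and 8 rose and 5 fell in DNMT3B knockdown (median 0.23). Over all genes 41.8% and 47.7% were called, so the 7 of 18 in DNMT1 knockdown are near the background. TGFB2, a secreted growth factor of the TGF-beta family, was at 1.76 ± 0.432 CPM in Control, 33.5 ± 0.378 in DNMT1 knockdown (19.1-fold higher) and 17.7 ± 0.353 in DNMT3B knockdown (10.1-fold higher). F3, tissue factor, the starter of coagulation, was at 16.8, 16.8 and 16.3 CPM in Control, 34.6, 35.5 and 35.2 in DNMT1 knockdown, and 37.1, 42.5 and 42.3 in DNMT3B knockdown. Every F3 value in a knockdown library was above every Control value, and F3 rose 2.11-fold and 2.44-fold in the fit. MYOF, a membrane-repair protein, was at 487 ± 2.71 CPM in Control and was called higher when either enzyme was knocked down. Its level was 548 ± 11.5 CPM with DNMT1 lowered and 599 ± 11.7 CPM with DNMT3B lowered. The direct comparison called MYOF lower in DNMT1 knockdown (log2 difference -0.13 ± 0.03). In the direct comparison 6 of the 18 were higher and 8 lower in DNMT1 knockdown (median -0.14), beside 24.3% and 20.9% of all genes. TGFB2 and DOCK5, a Rac activator, were higher there (0.92 ± 0.06 and 0.31 ± 0.03).

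Genes linked to YAP in the regenerating gut had medians on opposite sides of 0 in the knockdowns. Of 9 tested of 10, 4 rose and 5 fell in DNMT1 knockdown (median -0.17), while 7 rose and 1 fell in DNMT3B knockdown (median 0.57). Over all genes 21% rose and 20.8% fell in the first comparison, and 23.1% rose and 24.6% fell in the second. CLU, clusterin, the marker of revival stem cells in mouse intestine, was at 69.2, 68.2 and 68.9 CPM in Control, 86.3, 83.4 and 91.0 in DNMT1 knockdown, and 149, 138 and 145 in DNMT3B knockdown. The CLU groups did not overlap, and it rose by 0.34 ± 0.04 and 1.07 ± 0.04 (log2).

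EREG, an EGF-receptor ligand, fell from 477 ± 14.1 to 367 ± 9.03 CPM in DNMT1 knockdown. It was not called in DNMT3B knockdown (499 ± 18.5 CPM). Its relative AREG was called higher in both, from 52.3 ± 1.64 CPM in Control to 60.9 ± 1.04 in DNMT1 knockdown and 83.6 ± 0.772 in DNMT3B knockdown. In the direct comparison 8 of the 9 were called lower in DNMT1 than in DNMT3B knockdown and 1 did not pass (median -0.46), beside 20.9% of all genes called lower. ANXA1 was at 319 ± 10.2 CPM in DNMT1 knockdown and 481 ± 31.9 in DNMT3B knockdown, and ANXA3 at 40.2 ± 1.35 and 68.4 ± 1.59. The list was chosen with earlier results of these data known, and its split is a description.

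SRF with its cofactor MRTF, a second route from the actin cytoskeleton to CCN1 and CCN2, was read from 11 tested of 13 targets. Of these, 6 rose and 2 fell in DNMT1 knockdown (median 0.11), 5 rose and 2 fell in DNMT3B knockdown (median 0.10), and 3 were higher and 3 lower in the direct comparison (median 0.00). The shares of all genes called were 41.8%, 47.7% and 45.2%, and the 6 of 11 called in the direct comparison are close to that background. SRF itself fell from 161 ± 2.03 to 137 ± 3.73 CPM in DNMT1 knockdown, while the cytoskeletal genes MYL9 and CNN2 rose, from 33.3 ± 1.12 to 42.4 ± 2.09 and from 207.6 ± 0.303 to 234 ± 5.22 CPM. FHL2, ACTA2 and VCL rose in DNMT3B knockdown, by 0.35 ± 0.04, 0.47 ± 0.10 and 0.15 ± 0.03 (log2). FHL2 and VCL were also called higher in DNMT1 knockdown, by 0.11 ± 0.04 and 0.16 ± 0.03, and ACTA2 was not called there (0.11 ± 0.10). MYL9 was also called higher in DNMT3B knockdown (0.22 ± 0.05), and SRF and CNN2 were not called in it (0.03 ± 0.04 and 0.06 ± 0.03).

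**Figure D5:**
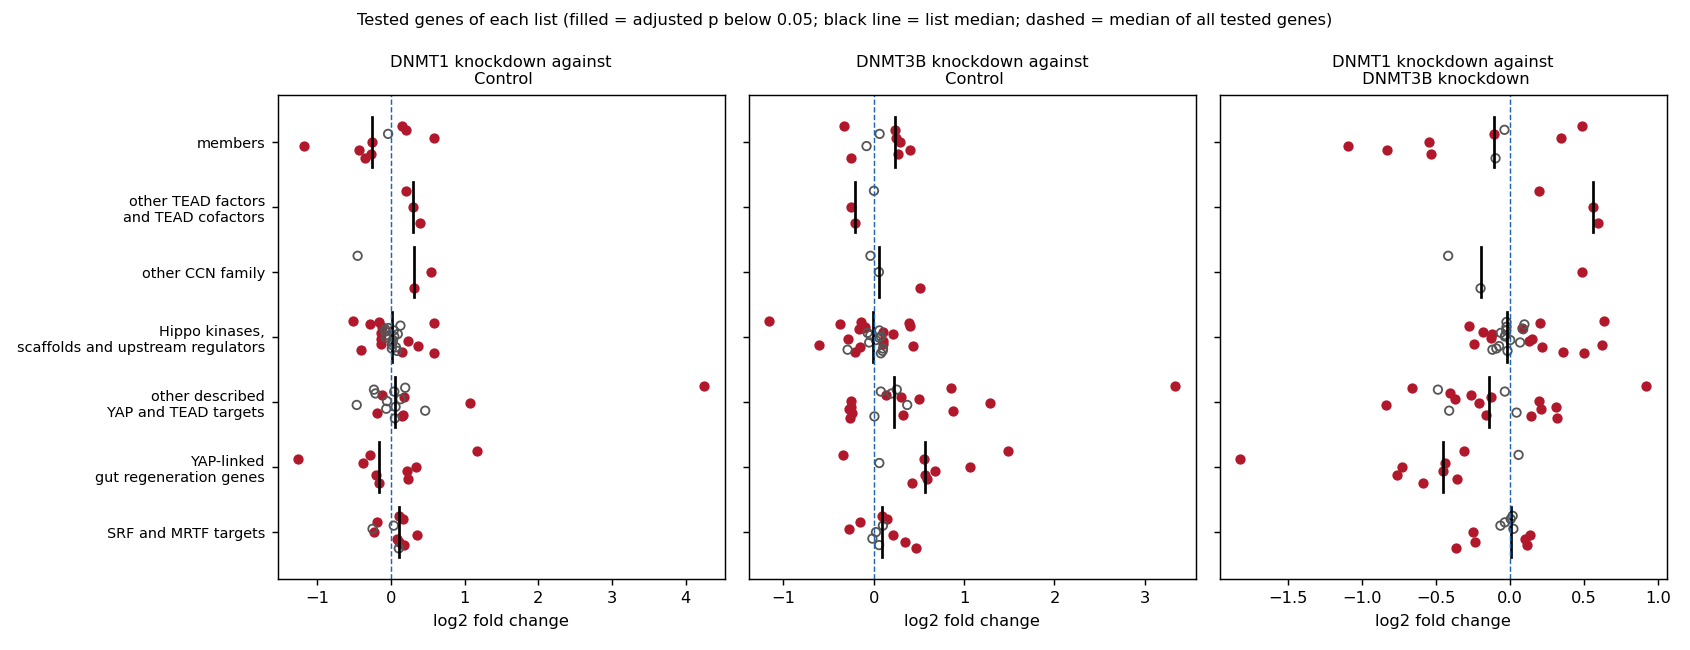
Log2 fold changes (horizontal axes) of the tested genes of each list in 3 comparisons, filled where the edgeR adjusted p is below 0.05, with the list median as a black line and the median of all tested genes dashed. The gut regeneration list has its median at 0.57 in DNMT3B knockdown and -0.46 in the direct comparison, and TGFB2 is the point at 4.26 in DNMT1 knockdown.

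Markers of other cell types were set beside these values. The summed level of 7 leukocyte markers was between 18.0 and 19.2 CPM in Control, between 18.4 and 19.7 in DNMT1 knockdown, and between 31.2 and 36.2 in DNMT3B knockdown. Nearly all of it was CD68, a lysosomal protein (17.1 to 18.2 CPM in Control and 30.1 to 34.7 in DNMT3B knockdown), and PTPRC, which defines leukocytes, was at most 0.205 CPM. The 7 stromal markers summed to 20.7 to 25.6, 23.5 to 28.4 and 32.5 to 33.8 CPM, mostly COL1A1, with COL1A2 and DCN at 0 in all 9 libraries. The 6 endothelial markers summed to at most 6.79 CPM. The epithelial sum was between 2411 and 2518 CPM in Control, between 2527 and 2655 in DNMT1 knockdown, and between 2552 and 2792 in DNMT3B knockdown. The part of these shifts in the results above was not tested.

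For a description of pattern, each gene's log2(CPM + 0.5) over the 9 libraries was set against that of 14758 genes whose mean level was 1 CPM or more. Libraries of a group share their treatment, so these values mostly compare 3 group levels. YAP1 was most like DUSP6, a phosphatase that is itself induced by ERK signalling (r = 0.998), then RAB11A and ITPRIPL2. CCN1 was most like BPGM (0.997) and CCN2 most like GNPDA1 (0.991).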

How the data were processed

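Raw read counts per gene symbol were the values the authors deposited, in 1 table with a column per library. STAR, featureCounts, DESeq2 and the build GRCh38 (hg38) are named in the submitters' processing notes. No source used here gives their versions, the annotation or the strand setting. Groups came from the sample labels.

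The model was edgeR 4.0.16 (R 4.3.3), quasi-likelihood, over all 9 libraries, with TMM scaling after filterByExpr had removed low genes. Calls needed a p below 0.05 after Benjamini-Hochberg adjustment over the 16660 tested genes. Every adjusted p is from this fit unless another tool is named. After a mean, ± is the SD over 3 libraries and after a log2 fold change it is the standard error. Within groups, pairs of libraries had a chi-square of 1.80 to 3.70 per degree of freedom, above sampling noise, so none was counted as a repeat. A count of 0 allows 3 counts, 0.0895 to 0.162 CPM by library (counting error only).

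Coordinates and exon lengths are from GENCODE v29 on GRCh38, with older symbols for the CCN genes. Promoters are from RefSeq. The 10 genes and the lists were chosen with earlier results of these data known. Named from each list were up to 3 called genes with the smallest adjusted p per comparison, besides TEAD2, TEAD3 and the CCN genes, and for pattern the 3 genes with the highest Pearson r. Some genes that the rule names are not reported here. Marker genes were chosen by their list. The scripts were tested on simulated data. Alternatives were DESeq2 1.42.0, limma-voom (limma 3.58.1), other scalings and filters, fits of the compared groups alone, thinning, a replicate block and leaving out each library.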

Additional observations from a re-analysis of the deposited data

How the results depend on the processing

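Over 9 alternatives of method and the 9 fits without 1 library each, 8 of the 9 tested genes were called in DNMT1 knockdown and 7 in DNMT3B knockdown in every setting run, with no change of direction. The direct comparison called 6 to 8, through TEAD4 and AJUBA alone. Leaving out 1 library at a time gave 5737 to 7111 called genes in DNMT1 knockdown against Control, 7032 to 8079 in DNMT3B knockdown against Control and 6658 to 7602 in the direct comparison. The numbers of the labels do not pair the libraries: deviations of same-numbered libraries correlated at -0.06 to 0.04. With the replicate block 6796, 7789 and 7379 genes were called, with 8, 7 and 6 of the 9 tested genes, and TEAD4 lost its call in the direct comparison (edgeR adjusted p = 0.0526). Signs turned for 2 low genes that had not passed in DNMT3B knockdown. Without 1 library, CCN5 ran from -0.35 to 0.10 and CCN4 from -0.019 to 0.18 (log2). CCN5 went from -0.03 to 0.10 without Control replicate 2, to 0.10 without DNMT3B knockdown replicate 1 and to 0.09 without DNMT3B knockdown replicate 2. CCN4 went from 0.06 to -0.019 without DNMT3B knockdown replicate 2. The cause was not tested. Depth limits ANKRD1 and CCN6, which did not enter the main fit, and no fitted difference is given for them.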
